A study of Mus musculus with 16 samples.

Results

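The 8 genes described here encode the subunits of the chaperonin CCT, also called TRiC: Tcp1, Cct2, Cct3, Cct4, Cct5, Cct6a, Cct7 and Cct8. They were followed through every probe set of the array whose single annotated gene symbol was 1 of the 8, which gave 25 of 45037 probe sets, from 1 each for Tcp1 and Cct5 to 7 each for Cct3 and Cct4. Each gene is represented by its probe set of highest mean signal over 16 arrays, and the others are given beside it. RNA of MC/9, a mouse mast cell line grown with rat T-Stim, was measured in 4 groups of 4 arrays. Exosomes harvested under oxidative stress (oxi exo) came from cells kept in 125 µM H2O2 for 24 h, and exosomes from normal conditions (norm exo) were the controls. The other 2 groups were cells labelled with oxidative stress (oxi cell) and with normal conditions (norm cell). The labels' descriptions of the cell samples speak of cells given exosomes of each condition, whereas the paper treats them as the donor cells exposed to H2O2 or vehicle, and the groups are used here in that sense. Exosomes were passed through a 0.22 µm filter and pelleted at 120000 g for 70 min. No source states for every replicate whether it was a separate culture, so p-values measure the spread between these samples, which may be technical.

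CCT is a barrel of stacked rings in the cytosol, each ring built from 1 copy of every subunit. Unfolded proteins bind inside the barrel, and ATP hydrolysis by the subunits closes the chamber around them. Actin and tubulin are its best known clients, and prefoldin hands nascent chains to it. The subunits share a fold, differ in the substrates they contact and, in yeast, in how tightly they bind ATP, with Tcp1, Cct2, Cct4 and Cct5 the tighter binders. Exosomes are small vesicles that cells release from endosomes, and they carry RNA.

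The arrays of exosomes and cells differed in the level of their lowest signals. Signals were scaled by the authors to a trimmed mean of 100 on every array and carry no other unit. Background, taken on each array as the 95th percentile of 138 probe sets for receptors and structural proteins of other tissues, was 245 ± 7.70 in oxi exo, 228 ± 21.7 in norm exo, 11.6 ± 0.955 in oxi cell and 14.4 ± 1.11 in norm cell (SD, n = 4 each). Spiked controls were 20.8 times higher in oxi exo than in oxi cell, and 17.3 times higher in norm exo than in norm cell. The 3′ to 5′ signal ratio of Gapdh ranged over 1.48 to 2.33 in oxi exo and 1.43 to 1.77 in norm exo. It was 0.836 to 0.884 in oxi cell and 0.823 to 0.841 in norm cell. The same ratio of actin averaged 3.86 ± 0.776 in oxi exo and 5.35 ± 1.23 in norm exo (SD, n = 4 each). In oxi cell and norm cell it averaged 1.38 and 1.43. By mean, Gapdh was the higher in oxi exo and actin in norm exo, with overlapping ranges for both. All 7 mast cell markers were above background on every array of both cell groups, against 2 in oxi exo and 5 in norm exo. Of 14 measured markers of other blood and stromal cells, 1 was above background on all arrays in oxi exo, 1 in norm exo, 4 in oxi cell and 2 in norm cell. In such samples, fewer vesicles or cells and less RNA in each cannot be told apart.

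All 8 genes were above background on every cell array. On the exosome arrays, Tcp1, Cct3 and Cct4 were above background throughout, and Cct2, Cct5, Cct6a and Cct7 on all 4 norm exo arrays. In oxi exo, Cct2, Cct5 and Cct7 exceeded background on 3 arrays, Cct6a on 1 and Cct8 on none. Cct8 also passed it on 1 of 4 norm exo arrays.

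**Figure D1:**
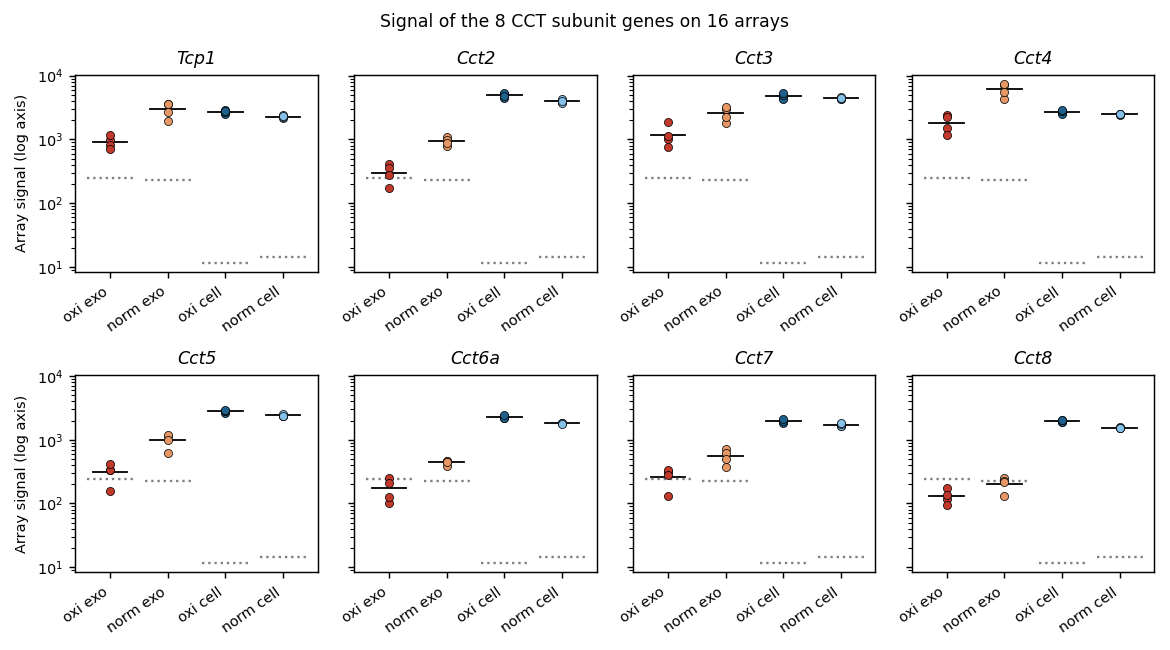
Array signal (log axis, scaled to a trimmed mean of 100) of each CCT gene on 4 arrays a group, with the group mean as a black line and the mean background of the group as a dotted line. Every gene lay lower in oxi exo than in norm exo by its mean, and Cct4 had its highest signals in norm exo.

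Exosomes harvested under oxidative stress carried less signal for CCT than exosomes from normal conditions. Of the 8 genes, 6 fell (Tcp1, Cct2, Cct3, Cct4, Cct5 and Cct6a) and 0 rose at an adjusted p below 0.05 in limma, while 1.7% of all probe sets fell and 0.0311% rose. At an unadjusted p below 0.05, 7 of the 8 were lower and 0 higher. The median log2 difference over the 8 was -1.56, against 0.06 over all probe sets. Bright probe sets as a whole were also lower: of the 2067 with a mean signal of at least 500, 28.6% fell, and their median was -0.90.

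Cct4, the delta subunit, whose mutation causes a sensory neuropathy in rat, had signals of 1525, 2426, 2223 and 1169 in oxi exo, against 7101, 7524, 4279 and 5480 in norm exo. Every oxi exo array was below every norm exo array. The log2 difference was -1.76 (SE 0.21), 3.38-fold lower, at an adjusted p of 0.000319. Tcp1, the alpha subunit and the first to be found, in the mouse t complex, had 985, 1154, 821 and 706 in oxi exo and 3531, 3649, 1948 and 2706 in norm exo. The groups lay apart, with a log2 difference of -1.67 (SE 0.19, adjusted p = 0.000252), or 3.19-fold lower. Both genes were far above the exosome background in each group.

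Cct5, the epsilon subunit, mutated in a human sensory neuropathy, had 339, 339, 411 and 158 in oxi exo against 1131, 1191, 624 and 1002 in norm exo. Its log2 difference was -1.71 (SE 0.29, adjusted p = 0.00287). Cct2, the beta subunit, had 407, 356, 273 and 171 in oxi exo against 1111, 993, 775 and 877 in norm exo. Both genes separated the groups, although replicate 4 of oxi exo lay under background for each. The log2 difference of Cct2 was -1.70 (SE 0.24, adjusted p = 0.000752). Cct6a, the zeta subunit, had 102, 253, 213 and 126 in oxi exo against 467, 460, 394 and 445 in norm exo. The oxi exo values lay mostly at or under background, which limits the size of the difference (log2 -1.44, SE 0.32, adjusted p = 0.0261).

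Cct3, the gamma subunit, had 999, 1872, 1125 and 757 in oxi exo against 3013, 3165, 1785 and 2286 in norm exo. Its groups overlapped, since replicate 2 of oxi exo exceeded replicate 3 of norm exo (log2 -1.15, SE 0.21, adjusted p = 0.00503). All 4 pairs of equal number were lower, although equal numbers did not pair the arrays in the data. Cct7, the eta subunit, had 313, 332, 280 and 130 in oxi exo against 706, 627, 371 and 501 in norm exo. Its groups did not overlap, yet its adjusted p was 0.0727 (log2 -1.11, 95% interval -1.72 to -0.50). Cct8, the theta subunit, had 118, 96, 175 and 136 in oxi exo against 247, 225, 220 and 130 in norm exo, nearly all at or under background, so that a difference was not measurable (log2 -0.64, adjusted p = 0.648). Signals did not overlap between groups and were lower in oxi exo for 6 of 8 genes, as for 4.09% of all probe sets.

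By these probe sets no gene was shown to differ from the mean of the 8 in this comparison. When each array was scaled to the mean log2 signal of the 8, a scaling chosen after the data were seen, 0 of 8 had an adjusted p below 0.05 in limma and 1 an unadjusted one, while 0.182% of all probe sets fell and 35.2% rose. Leaving aside Cct8, whose difference was not measurable, the relative log2 difference lay between -0.36 for Cct4 (95% interval -0.68 to -0.04) and 0.29 for Cct7 (-0.34 to 0.92). The intervals allow differences of more than 0.5 for each gene.

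Other probe sets of the same genes mostly, but not always, gave the same direction. Of the 25 probe sets, 11 fell and 0 rose, and 8 were above background on no oxi exo array. For Cct2, 1416037_a_at was above background on no oxi exo array and on all 4 norm exo arrays (means 55.7 and 419). That bounds its difference at at least 1.70-fold lower. Its adjusted p of 0.000726 in limma belongs to the fit without the bound (log2 -3.17) and does not test the bound. For Cct4, 1415867_at averaged 823 in oxi exo against 3036 in norm exo (log2 -1.94, adjusted p = 0.000265), whereas the dimmer 1456082_x_at averaged 523 against 834 (log2 -0.70, adjusted p = 0.189). A suffix of _x_at marks probes that may also match other genes. The representative probe sets of Cct2, Cct3 and Cct4 (1433535_x_at, 1416024_x_at and 1433447_x_at) carry it. For Cct6a the probe sets parted: 1423517_at, above background on all exosome arrays, averaged 417 in oxi exo and 518 in norm exo (log2 -0.29, adjusted p = 0.754), unlike 1455988_a_at above. Relative to the mean of the 8, 1423517_at was higher by 1.10 (adjusted p = 0.00592), and for Cct4 1415867_at was lower by that measure (-0.54) and 1456082_x_at higher (0.70). Which of them follows the Cct6a transcript more closely was not tested.

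The level of the 8 genes also moved together between arrays of 1 group. Replicate 4 of oxi exo was lowest for 6 of 8 genes, and replicate 3 of norm exo was lowest for 7 of 8. Without replicate 1, the adjusted p of Cct3 and Cct6a no longer passed, and 4 of 8 genes fell. Without replicate 4, 5 fell, and without replicate 3, in which norm exo was low, 7 fell, with Cct7 added. The 100 brightest probe sets took 10.3% ± 1.01 of the summed signal in oxi exo and 15.7% ± 1.46 in norm exo (SD, n = 4 each), and the part of this in the differences was not tested. After quantile normalization, which removes such differences in distribution, 1 of 8 genes fell, Cct2, against 0.684% of all probe sets. All 8 log2 differences remained negative, with a median of -1.36: Cct2, Cct5 and Cct6a stood at -1.68, -1.69 and -2.36, whereas Cct3 and Cct4 stood at -0.20 and -0.45.

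In the cells the direction was the opposite and the size small. Of the 8 genes, 6 rose in oxi cell (Tcp1, Cct2, Cct5, Cct6a, Cct7 and Cct8) and 0 fell at either an adjusted or an unadjusted p below 0.05 in limma, while 4.31% of all probe sets rose and 5.51% fell. The median log2 difference was 0.23 with a range of 0.10 to 0.34, against -0.15 over all probe sets. Among probe sets with a mean signal of at least 500, 22.2% rose.

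Cct8 had signals of 1876, 1913, 2001 and 2060 in oxi cell, against 1607, 1517, 1532 and 1543 in norm cell. This was the largest of the 8 differences by log2 (0.34, SE 0.05, 1.27-fold, adjusted p = 0.00233). Cct6a had 2315, 2174, 2169 and 2415 in oxi cell against 1835, 1817, 1838 and 1759 in norm cell. Its second probe set rose as well, with log2 differences of 0.32 and 0.29. Cct2 had 4490, 5156, 5268 and 4819 in oxi cell against 3901, 3752, 4263 and 4006 in norm cell, a log2 difference of 0.31 (adjusted p = 0.00473). Tcp1 had 2545, 2683, 2857 and 2809 in oxi cell against 2149, 2233, 2418 and 2320 in norm cell, with a log2 difference of 0.26 (adjusted p = 0.00612). In all of these every oxi cell array exceeded every norm cell array, as for 6 of 8 genes and 6.38% of all probe sets.

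Cct5 and Cct7 rose least among the 6, with log2 differences of 0.21 and 0.20, and lost their call after quantile normalization. With 1 replicate left out, Cct5 passed in 2 of 4 fits and Cct7 in 0 of 4 (adjusted p of 0.0514 to 0.136 in limma). Cct3 had 4383, 4271, 5021 and 5302 in oxi cell against 4239, 4342, 4592 and 4511 in norm cell, and its groups overlapped (log2 0.10, 95% interval -0.02 to 0.22, adjusted p = 0.346). Cct4 had 2574, 2530, 2765 and 2906 in oxi cell against 2451, 2534, 2511 and 2521 in norm cell, also with overlap (log2 0.10, 95% interval -0.01 to 0.22, adjusted p = 0.287). Other probe sets of these genes passed, with log2 differences of 0.35 for 1449645_s_at and 0.30 for 1459987_s_at of Cct3. For Cct4, 1415867_at passed at 0.21. The bright 1448178_a_at of Cct3 did not pass (0.15, adjusted p = 0.0748). Nor did 1438560_x_at of Cct4 (0.12, adjusted p = 0.223) or 1456082_x_at of Cct4, which was lower (-0.24, adjusted p = 0.195). The other probe sets of Cct2 failed as well, 1416037_a_at at 0.15 (adjusted p = 0.116) and 1433534_a_at at 0.19 (adjusted p = 0.235). The call of Cct2 thus rests on its representative probe set. Of all 25 probe sets, 11 rose and 0 fell. Scaled to the spiked controls, which stood at 645 in oxi cell and 792 in norm cell, all 8 genes rose, as did 14.3% of all probe sets. With 1 replicate left out 3 to 5 of 8 rose, the fewest without replicate 4.

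**Figure D2:**
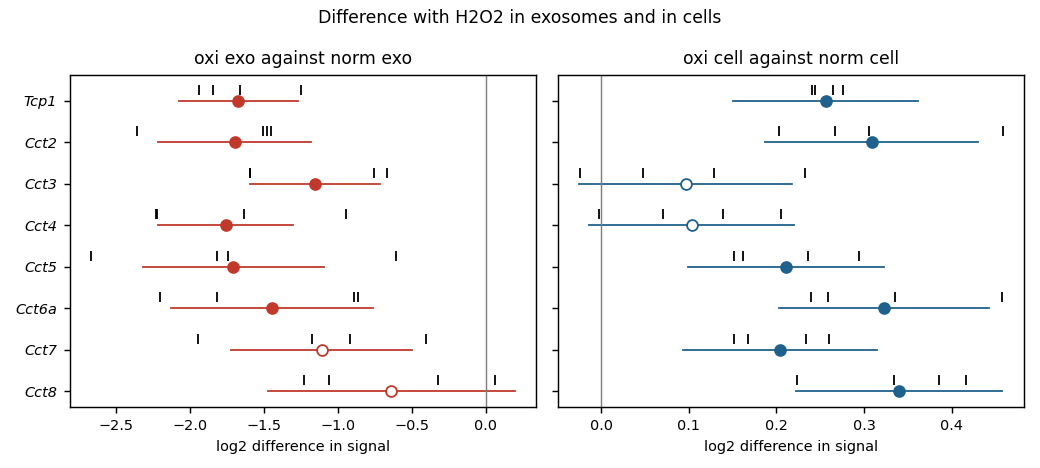
Log2 difference in signal for each CCT gene, oxi exo against norm exo (left) and oxi cell against norm cell (right). Large points are the fitted difference with its 95% interval, filled at an adjusted p below 0.05, and short bars above them are the differences of the 4 pairs of equal replicate number; the horizontal scales differ, with medians of -1.56 and 0.23.

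The difference between exosomes and cells in their H2O2 effect was tested itself. This fit took a common spread for both, though exosomes spread more (for Tcp1, SE 0.19 in exosomes and 0.05 in cells when fitted apart). Its p-values may therefore be too small. The differences also rest on replicate numbers that did not pair the arrays in the data. For 6 of 8 genes the effect in exosomes was lower than the effect in cells, and for 0 it was higher, while 1.47% of all probe sets were lower and 0.0933% higher in this way. At an unadjusted p below 0.05 in limma, 8 were lower and 0 higher. The log2 effect in exosomes minus that in cells was -1.93 for Tcp1 (SE 0.20, adjusted p = 0.00372), -2.01 for Cct2 (SE 0.24) and -1.86 for Cct4 (SE 0.27). Cct5, Cct6a and Cct3 followed with -1.92, -1.77 and -1.25. Cct7 and Cct8 did not pass (adjusted p = 0.0668 and 0.201). The number of genes that passed fell to 2 without replicate 1, to 0 without replicate 2 and to 2 without replicate 4, so the calls rest on each of these pairs.

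Upstream sequences are shown for 4 of the genes that rose in the cells, as the stretch in which promoter elements of a shared response would be looked for. RefSeq promoters (build GRCm38.p6) were matched for 7 genes, in 9 windows since Cct2 and Cct5 have 2 starts each, and the 250 bases before the start were read. The positions are chr17:12916079-12916328 on the plus strand for Tcp1, chr15:31601847-31602096 on the minus strand for Cct5, chr5:129787106-129787355 on the plus strand for Cct6a and chr16:87495870-87496119 on the minus strand for Cct8. Capitals mark the antioxidant response element core TGACNNNGC in Tcp1 and Cct6a and the outward heat shock motif TTCNNGAA in Cct5, on either strand.
Tcp1: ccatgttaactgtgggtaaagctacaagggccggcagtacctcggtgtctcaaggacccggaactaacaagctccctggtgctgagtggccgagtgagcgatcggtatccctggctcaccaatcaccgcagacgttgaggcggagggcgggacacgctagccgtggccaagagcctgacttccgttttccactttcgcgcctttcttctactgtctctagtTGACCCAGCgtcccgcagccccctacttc
Cct5: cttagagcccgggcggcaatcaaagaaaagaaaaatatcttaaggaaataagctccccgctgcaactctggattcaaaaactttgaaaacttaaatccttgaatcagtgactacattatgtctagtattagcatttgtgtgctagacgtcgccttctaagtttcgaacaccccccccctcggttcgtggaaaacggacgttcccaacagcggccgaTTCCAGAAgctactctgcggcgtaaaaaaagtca
Cct6a: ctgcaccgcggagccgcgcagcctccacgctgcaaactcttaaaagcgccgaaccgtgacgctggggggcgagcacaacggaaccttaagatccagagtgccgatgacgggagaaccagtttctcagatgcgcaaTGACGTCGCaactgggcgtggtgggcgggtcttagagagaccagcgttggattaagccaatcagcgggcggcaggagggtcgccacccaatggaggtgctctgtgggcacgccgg
Cct8: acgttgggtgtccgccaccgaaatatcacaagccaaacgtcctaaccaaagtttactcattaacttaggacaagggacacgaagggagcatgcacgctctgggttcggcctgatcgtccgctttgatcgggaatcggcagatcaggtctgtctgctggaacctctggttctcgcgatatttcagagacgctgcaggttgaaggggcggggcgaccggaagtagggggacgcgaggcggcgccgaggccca
TGACNNNGC lay 29 bases before the start of Tcp1 and 115 before that of Cct6a, and in 1 of the Cct2 windows, so in 3 of 9 windows against 10.2% of 32851 promoters of this length. TTCNNGAA lay 34 bases before the start of Cct5, in 1 of 9 windows against 7.17% of all, and the inward form GAANNTTC in 1 Cct2 window against 6.69% of all. The GC box GGGCGG was found in 8 of 9 windows, covering all 7 genes, against 32.7% of all promoters, and CCAAT in 4 of 9 against 33.8%. Matches of different motifs did not overlap in these windows. A match of letters is not a bound site.

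Compared with cells, exosomes held the CCT genes unequally. In oxi exo all 8 genes were lower than in oxi cell, as 19.4% of all probe sets were, while 60.8% of all probe sets were higher. Cct2 averaged 302 ± 103 in oxi exo and 4933 ± 352 in oxi cell (SD, n = 4 each), a log2 difference of -4.10 (SE 0.26). Cct8, not above background in oxi exo, was at least 7.99-fold lower there than in oxi cell (means 131 and 1962). Its adjusted p of 1.08e-05 in limma belongs to the fit without the bound (log2 -3.94). Cct6a (log2 -3.81), Cct5 (-3.24) and Cct7 (-2.99) followed. Cct3 and Tcp1 differed less, at -2.07 and -1.59. Cct4 had the smallest difference, -0.61 (SE 0.25, adjusted p = 0.0450), with 1836 ± 589 in oxi exo against 2694 ± 174 in oxi cell, and lost its call without replicate 1, 3 or 4. By 1415867_at instead of the representative 1433447_x_at, the difference of Cct4 was -1.45, close to that of Tcp1.

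In the normal condition Cct4 was higher in exosomes. Its 4 norm exo signals given above (4279 to 7524) exceeded the norm cell signals of 2451, 2534, 2511 and 2521, a log2 difference of 1.25 (SE 0.16, 2.38-fold, adjusted p = 0.000145). Tcp1 averaged 2958 ± 794 in norm exo and 2280 ± 115 in norm cell, with overlapping groups and an adjusted p of 0.134 (log2 0.33, 95% interval -0.09 to 0.76). Without replicate 3 it passed, at 0.55. The other 6 genes were lower in norm exo, as 19% of all probe sets were, whereas 57.7% were higher. Cct8, above background on 1 of 4 norm exo arrays, was lowest at -2.96, followed by Cct2 at -2.10, Cct6a at -2.04, Cct7 at -1.67, Cct5 at -1.32 and Cct3 at -0.82. Over probe sets with a mean signal of at least 500, the median was -3.07 in oxi exo against oxi cell, where 90.3% were lower and 5.56% higher. In norm exo against norm cell the median was -2.21, with 83% lower and 9.39% higher.

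**Figure D3:**
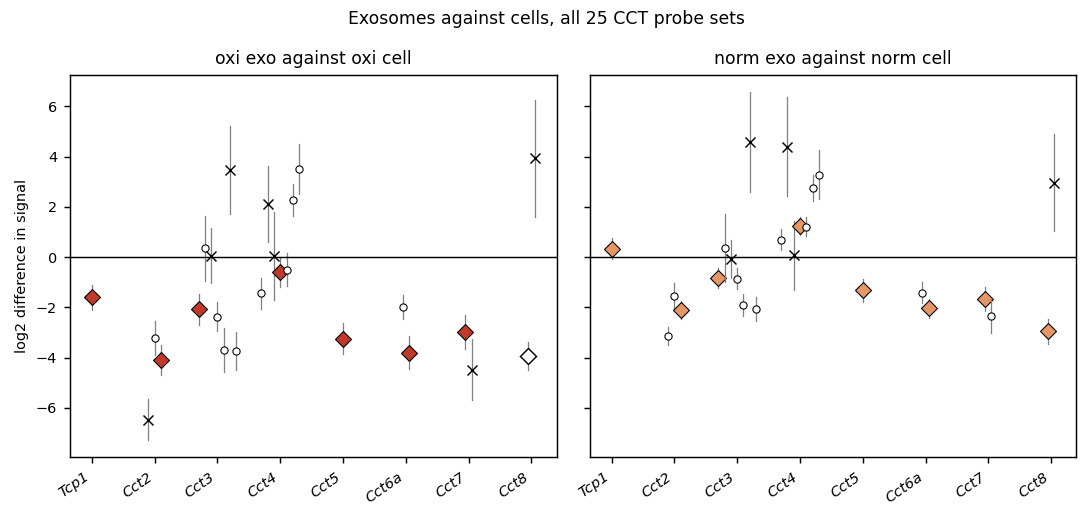
Log2 difference in signal between exosomes and cells for all 25 CCT probe sets with 95% intervals, oxi (left) and norm (right). Diamonds are the probe sets of highest mean signal, circles the others, and crosses and the open diamond those above background on none of the 4 exosome arrays, 8 in oxi exo and 5 in norm exo; in the norm panel the Cct4 diamond lies above 0 at 1.25.

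For Cct4 the signal was higher in norm exo by every probe set above background there, as for 57.7% of all probe sets. The log2 difference of 1.25 given above came from 1433447_x_at. The 1415867_at of Cct4, with the suffix for probes of a single transcript, averaged 3036 in norm exo and 1836 in norm cell (log2 0.69, adjusted p = 0.00623). For 1438560_x_at, 1456082_x_at and 1456572_x_at the log2 differences were 1.20, 2.74 and 3.28. The dimmer 1456082_x_at and 1456572_x_at averaged 834 and 362 in norm exo, where background was 228. In norm cell they averaged 125 and 42.6, where background was 14.4. The part of background in their larger differences was not tested. The remaining 2 were above background on no norm exo array. In oxi exo the probe sets parted, with 1415867_at at -1.45 and 1456082_x_at at 2.28 against oxi cell. Whether probes of the _x_at type pick up other transcripts in exosomes was not tested.

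These signs depend on how arrays of such different background are put on 1 scale. Scaled to the spiked controls, all 8 genes were lower in exosomes in both conditions, as were 49.9% of all probe sets in oxi exo and 51.3% in norm exo, with Cct4 at -2.86 and Tcp1 at -3.78 in norm exo against norm cell, and the median of all probe sets in that comparison was -1.88, not 2.23. After quantile normalization, with a median of 0.16, Tcp1, Cct3 and Cct4 were higher in norm exo (log2 1.45, 0.39 and 2.02), and Tcp1 and Cct4 were higher in oxi exo than in oxi cell (0.56 and 1.51). By that scaling 20.6% of all probe sets were higher in oxi exo than in oxi cell and 18.6% in norm exo than in norm cell. Scaling to the spiked controls shifts every gene alike and leaves their order as it was. After quantile normalization, which can change the order, Cct4 again stood highest and Tcp1 next in both conditions.

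**Figure D4:**
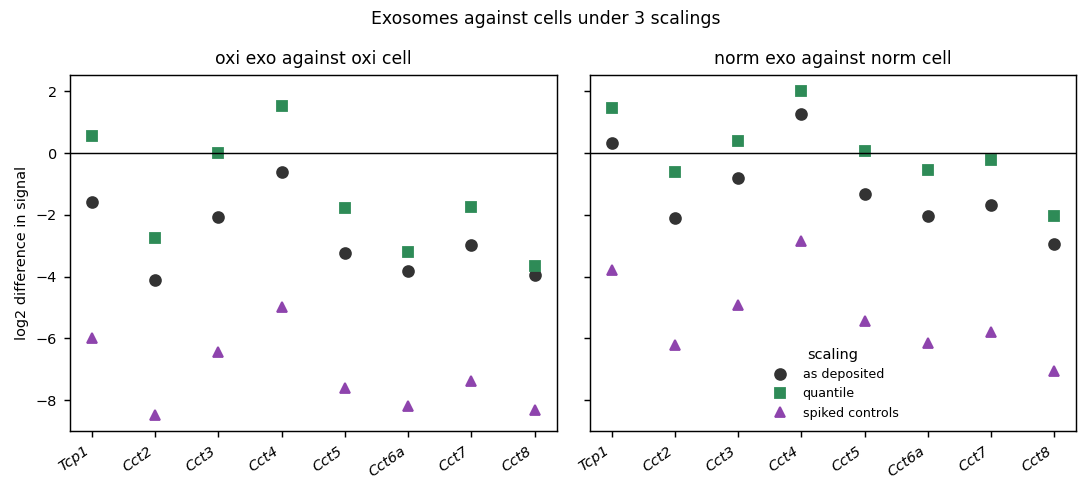
Log2 difference in signal between exosomes and cells for each CCT gene under 3 scalings, oxi (left) and norm (right). Circles use the deposited scaling, squares quantile normalization and triangles the spiked controls; Cct4 in norm exo against norm cell lies at 1.25, 2.02 and -2.86.

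A scaling that drops out of the comparison was used to ask whether the subunits differed among themselves. With each array set to the mean log2 signal of the 8, as above, Cct4 was higher in exosomes than the mean of the subunits by 2.18 in oxi exo against oxi cell (95% interval 1.78 to 2.58) and by 2.42 in norm exo against norm cell (2.26 to 2.57). Tcp1 was higher by 1.20 in the oxi and 1.50 in the norm condition, and Cct3 by 0.72 and 0.34. Cct2 was lower (-1.31 and -0.93), as were Cct6a (-1.01 and -0.87) and Cct8 (-1.14 and -1.79), the last mostly at or under background in exosomes. For Cct6a and Cct3 the sign turned with the probe set. For Cct6a, 1423517_at was at 0.80 in the oxi and -0.25 in the norm comparison, where it did not pass (adjusted p = 0.133), and for Cct3, 1459987_s_at was at -0.94 and -0.91. For Cct2, 1433534_a_at was at -0.41 and -0.36 and did not pass. The 5 probe sets of Cct4 that exceeded background on exosome arrays all had relative values above 0 in both comparisons, and Tcp1 has 1 probe set. For Cct4, 1415867_at, which lacks the _x_at suffix, was at 1.35 in the oxi and 1.86 in the norm comparison, against 2.18 and 2.42 by 1433447_x_at. In limma 3 genes were higher and 3 lower in the oxi comparison, and 3 higher and 4 lower, with Cct7 at -0.51, in the norm comparison. The mean is that of the same 8 genes, so some must lie below it where others lie above. It also includes Cct8, so the calls are not separate tests of each subunit. Over all probe sets 3.1% were lower and 85% higher in the oxi comparison, and 9.24% and 70.9% in the norm comparison. These relative values show unequal differences between subunits and no absolute amount.

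**Figure D5:**
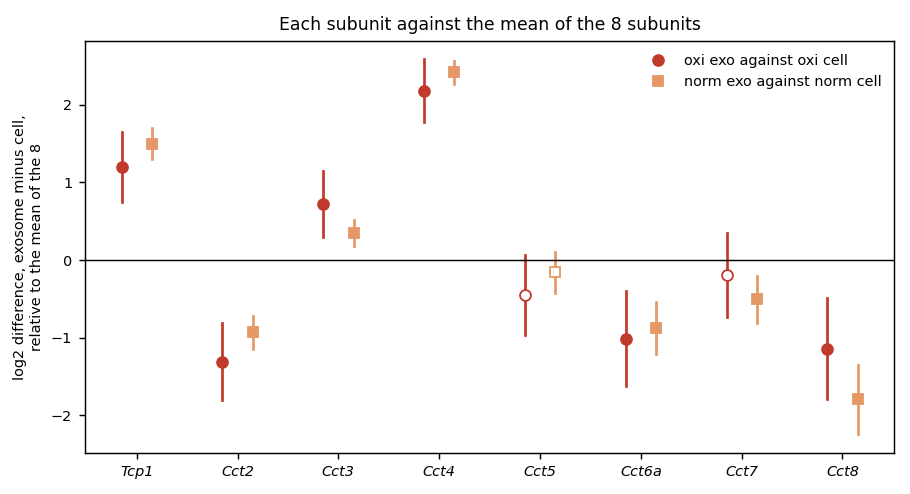
Log2 difference between exosomes and cells for each CCT gene relative to the mean of the 8 genes on the same array, with 95% intervals, oxi (circles) and norm (squares). Points are filled at an adjusted p below 0.05; Cct4 (2.18 and 2.42) and Tcp1 (1.20 and 1.50) stand above the mean in both conditions.

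Over arrays of both conditions the 8 genes varied alike within each kind of sample, and less so within single groups. Over 8 exosome arrays of both conditions the Pearson correlation of log2 signals between 2 CCT genes had a median of 0.92 over 28 pairs, from 0.49 to 0.97, and over 8 cell arrays a median of 0.84, from 0.51 to 0.98. Within single groups of 4 arrays the median was 0.63 in oxi exo (from -0.75), 0.94 in norm exo (from 0.00132), 0.73 in oxi cell (from -0.73) and 0.28 in norm cell (from -0.97). The 8 arrays of a kind share the contrast between conditions and the scaling, so the values are a description. Outside CCT, the search took single-symbol probe sets in the upper quartile of mean signal, centred within exosomes and within cells over 16 arrays. The 5 genes with the pattern most like the mean of the 8 were Mdh2 (mitochondrial malate dehydrogenase, r = 0.994), Anapc5 (a subunit of the anaphase promoting complex, 0.994), Rtraf (0.992), Pebp1 (0.991) and BC004004 (0.990). The probe sets of Anapc5, Rtraf and Pebp1 carry the suffix _x_at. These correlations also include the contrast between conditions. Mdh2 averaged 1414 in oxi exo, 4556 in norm exo, 3693 in oxi cell and 3045 in norm cell.

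The partners of CCT were followed in the same way. Of 6 prefoldin subunits, which pass unfolded chains to CCT, 0 differed between oxi exo and norm exo in limma, 1 was lower at an unadjusted p below 0.05, and none was above background on all arrays of either exosome group. Of all probe sets 1.7% fell and 0.0311% rose in that comparison. In the cells Pfdn1 (402 in oxi cell, 275 in norm cell, log2 0.55) and Pfdn4 (314 in oxi cell, 252 in norm cell, log2 0.31) rose, and 0 fell. Of all probe sets 4.31% rose and 5.51% fell there. At an unadjusted p below 0.05 in limma, 2 prefoldin subunits rose and 1 fell in the cells. Of the phosducin-like cochaperones Pdcl, Pdcl3 and Txndc9, Txndc9 rose in oxi cell (log2 0.24, adjusted p = 0.0329) and had 174 in oxi exo against 399 in norm exo (log2 -1.23, adjusted p = 0.0620). Of 6 tubulin folding cofactors, which take over tubulin after CCT, Tbcb rose in oxi cell (822 against 565 in norm cell, log2 0.54), and 0 differed between oxi exo and norm exo. At an unadjusted p below 0.05 in limma, 2 cofactors rose and 1 fell in the cells, and 1 was lower in oxi exo. The mitochondrial chaperonin, which works in its own compartment, moved the same way in the cells, with log2 differences of 0.30 for Hspd1 and 0.49 for Hspe1. Hspe1 was above background on no exosome array. Of the CCT-like relatives, Cct6b and Cct8l1 were above background on no array of any group.

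Genes of proteins that CCT folds were measured for 19 of those listed, with no single-symbol probe set for Actr2, Tuba1b and Tuba1c. In exosomes 4 of 19 fell with oxidative stress and 0 rose, with a median log2 difference of -0.80, and 10 were lower at an unadjusted p below 0.05. Tubb4b, Tubb6, Tubg1 and Gnb2 were above background on no exosome array, so the median includes differences that were not measurable. Over all probe sets 1.7% fell and 0.0311% rose, and among those with a mean signal of at least 500, where 28.6% fell, the median was close to that of this list (-0.90). Actg1 (cytoplasmic gamma-actin) averaged 1103 ± 369 in oxi exo and 3138 ± 640 in norm exo (SD, n = 4 each, log2 -1.56). Tubb5, a beta-tubulin, averaged 682 ± 109 in oxi exo and 1735 ± 326 in norm exo (log2 -1.34). Gnb1, a G protein beta subunit, averaged 205 ± 70.1 in oxi exo, under background on most arrays, and 749 ± 174 in norm exo (log2 -1.89). Actb (beta-actin) was the fourth (log2 -1.03, adjusted p = 0.0307). In the cells 7 of 19 rose and 1 fell, while 4.31% of all probe sets rose and 5.51% fell, and 22.2% of those with a mean signal of at least 500 rose. Tubb6 (388 ± 20.0 in oxi cell, 182 ± 19.7 in norm cell, log2 1.10) and Actr3 (2244 ± 145 in oxi cell, 1428 ± 218 in norm cell, log2 0.66) rose most among them, and Actb fell by 0.21 on the log2 scale. Set against cells of the same condition, oxi exo had 16 of 19 lower and 1 higher, and norm exo had 15 of 19 lower and 2 higher. The shares lower among probe sets with a mean signal of at least 500 were 90.3% and 83%, so the counts are near that background, while over all probe sets 19.4% and 19% were lower and 60.8% and 57.7% higher.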

How the data were processed

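RNA of 16 samples was hybridized to an Affymetrix mouse array, named 430A 2.0 in the paper, while the table holds the 45101 probe sets of the 430 2.0 design. The authors deposited MAS5.0 signals, that is linear intensities, made in GCOS 1.2 according to the submitters' processing notes and scaled to a trimmed mean of 100, with 2% trimmed at each end. Detection calls and probe sequences were not used here. Probe sets were named through GEO's platform annotation: 34945 had 1 symbol, 932 several and 9160 none, after 64 controls were left out. The number of arrays, 4 a group, limits the precision.

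Each comparison was a limma fit of its own on log2 signals (limma 3.58.1 under R 4.3.3, with a mean-variance trend). Replicate numbers entered as a block, since a paired test is named in the methods. P was adjusted by Benjamini-Hochberg over 45037 probe sets, and all adjusted p are from these fits. The effect in exosomes minus that in cells was fitted on the 8 differences within pairs. A probe set above background on no array of a group has only a bound there, the mean of the brighter group over, per array, the higher of background and the dim signal. The named genes are the 8 members, each by its probe set of highest mean signal, the 5 genes of most similar pattern and the partner lists. Members, lists, tests and alternatives were chosen with earlier results of these data known. The alternatives left out the block or 1 replicate at a time, normalized by quantiles or to 9 spiked control probe sets, kept only probe sets above the median signal, added 100 before the log, floored signals at background, averaged all probe sets of a gene, or used the methods' paired test. The fits were tested on simulated data. Python 3.11.15 with pandas 2.3.3, numpy 2.4.6 and matplotlib 3.10.9 was used.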

Additional observations from a re-analysis of the deposited data

Results flagged for a closer look

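For 6 CCT genes the effect of H2O2 in exosomes differed from that in cells by a test of the difference itself (limma, 4 pairs in each). It was lower in this way for 1.47% of all probe sets and for 24.6% of those with a mean signal of at least 500. The limits of this fit given above apply. The log2 effect in exosomes minus that in cells was -1.93 for Tcp1 (adjusted p = 0.00372), -2.01 for Cct2 (0.00443), -1.86 for Cct4 (0.00899), -1.77 for Cct6a (0.0205), -1.92 for Cct5 (0.0231) and -1.25 for Cct3 (0.0281). In no group of 4 arrays did 1 array of a CCT gene lie apart from the other 3 by the test applied.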

How the results depend on the processing

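Over 8 genes, 5 comparisons and 12 alternatives, 385 of 480 values kept their direction and their side of the threshold, 72 lost the call, 12 gained one, 10 changed sign with a call, and 1 did so without a call (Cct8 in oxi exo against norm exo, 0.0904 with signals floored at background). For oxi exo against norm exo, 6 genes fell; 1 did with quantile normalization, 2 with the mean of all probe sets per gene, 0 with the methods' paired test (7 at their unadjusted threshold), and 4 to 7 with a replicate left out. For oxi cell against norm cell, 6 rose; 0 did with the methods' paired test (6 unadjusted), and 3 to 5 with a replicate left out. For norm exo against norm cell, 6 were lower and 1 higher; quantile normalization gave 3 and 3, scaling to spiked controls 0 higher, the methods' paired test 0 higher, and leaving out a replicate 1 to 2 higher (2 without replicate 3, with Tcp1 at 0.55). For oxi exo against oxi cell, 8 were lower and 0 higher; quantile normalization gave 5 and 2, the mean of all probe sets 1 higher, and leaving out a replicate 7 to 8 lower. For the effect in exosomes minus that in cells, 6 were lower; 2 were with quantile normalization, 3 with the mean of all probe sets, 0 with the methods' paired test (8 unadjusted), and 0 to 6 with a replicate left out.

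Among the called values, signs changed in norm exo against norm cell for Tcp1 (-3.78) and Cct4 (-2.86) with spiked controls, for Cct3 (0.39) and Cct5 (0.0792) with quantile normalization, and for Cct8 (0.00396) with the mean of all probe sets. They changed in oxi exo against oxi cell for Tcp1 (0.56), Cct3 (0.00265) and Cct4 (1.51) with quantile normalization and for Cct4 (0.77) with the mean of all probe sets, and in oxi cell against norm cell for Cct8 (-0.0253) with that same mean. It gives dim probe sets the same weight as bright ones. Relative to the mean of the 8, Cct6a in oxi exo against norm exo ranged over -0.21 to 0.12 with a replicate left out (0.12 without replicate 1). The cause was not tested. Cct4 in oxi exo against oxi cell lost its call under 6 of 12 alternatives, besides its sign changes with quantile normalization and the mean of all probe sets.

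The replicate numbers did not pair the arrays in the data (correlation of deviations of same-numbered arrays -0.04 to 0.05, highest with the own number in 4 of 16 cases). Without the replicate block the counts were 6, 6, 6, 8 and 6, as with it. In oxi exo, background limits Cct8 and Cct6a most.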
